A study of Mus musculus with 18 samples.

Results

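Wnt signalling genes were followed through B cell receptor (BCR) stimulation in WEHI-231 cells, a murine immature B cell lymphoma line, and in TFEB mutant clones made from it. The 10 genes were Axin2, Axin1, Apc, Gsk3b, Ctnnb1, Lef1, Tcf7, Tcf7l2, Nkd1 and Myb, of 55487 genes with an entry in the count tables. They were selected on the measured fold changes of Axin2, which anti-IgM lowered in every genotype, so the anti-IgM values of Axin2 are a description and carry no test. Of the 10 genes, 9 held enough counts to be tested and Nkd1 held none. RNA was sequenced from parental WEHI-231 cells and from clone #A-59 and clone #B-20, either left untreated (0 h) or treated with 10 µg/ml F(ab')2 anti-mouse IgM for 6 or 18 h, with 2 libraries for each of the 9 groups. Both clones had received Cas9 complexes with a crRNA against Tfeb by electroporation and were grown out by single-cell dilution, whereas no cloning step is stated for the parental cells. Each mutant line is thus 1 clone and no TFEB-intact clone was analysed here, so that the loss of TFEB and the history of a clone cannot be told apart.

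In the canonical Wnt pathway, a complex built on the scaffolds Axin and Apc holds β-catenin (Ctnnb1) so that the kinase Gsk3b marks it for degradation. Wnt ligands halt this complex, and β-catenin then enters the nucleus, where it binds the TCF/LEF proteins encoded by Lef1, Tcf7, Tcf7l1 and Tcf7l2. Without β-catenin these factors repress their targets together with Tle corepressors. Axin2 is both a part of the complex and one of the most widely used target genes of the pathway, and Nkd1 is an inhibitor that is likewise induced by it. Lef1 is best known in early B and T lymphocytes, Tcf7 in T cells, and Myb is a transcription factor of blood progenitors whose gene is active in immature B cells. TFEB, a basic helix-loop-helix factor of lysosomal genes, binds E-box motifs with the core CACGTG.

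The promoters of Axin2, which was low after anti-IgM, and of Lef1 are shown first. Among the 10 genes, Lef1 had the largest differences between genotypes that passed the test. Promoters of RefSeq (GRCm38.p6) were found for 8 of the 10 genes, 14 starts in all, and the 250 bases before each start were searched on both strands for CTTTGA and CTTTGT, the core to which TCF/LEF factors bind, and for CACGTG. The first sequence lies before a start of Axin2, at chr11:108920099-108920348 on the plus strand and inside the span of the gene, and holds none of the 3 motifs. The second lies before the most downstream of 4 starts of Lef1, at chr3:131156044-131156293 on the plus strand. Capitals mark the matches.
Axin2: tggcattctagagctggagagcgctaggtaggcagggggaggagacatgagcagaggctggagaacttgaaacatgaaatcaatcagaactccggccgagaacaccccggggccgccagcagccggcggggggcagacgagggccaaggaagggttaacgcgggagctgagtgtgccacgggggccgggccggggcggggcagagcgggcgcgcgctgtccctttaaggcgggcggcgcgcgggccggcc
Lef1: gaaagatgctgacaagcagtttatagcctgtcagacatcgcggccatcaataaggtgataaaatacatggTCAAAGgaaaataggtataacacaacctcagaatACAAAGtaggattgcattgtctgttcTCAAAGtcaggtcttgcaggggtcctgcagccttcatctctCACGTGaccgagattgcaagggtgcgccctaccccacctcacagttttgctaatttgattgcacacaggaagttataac
The Lef1 window held 2 matches of CTTTGA, 1 of CTTTGT, all read on the minus strand, and 1 palindromic CACGTG. None of the 3 motifs was found before any other Lef1 start, the first of which lies 45997 bases upstream, so the window shown is the only one of Lef1 with a match. Among the other members only Gsk3b (1 CTTTGA) and the second start of Tcf7l2 (1 CTTTGT) had a match. Over 32851 promoters of the same length, 13.8% held CTTTGA, 16.5% held CTTTGT, 27.6% held at least one of these and 6.02% held CACGTG. Counts per gene do not show which Lef1 start was used, and a match does not show that a factor was bound.

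The 18 libraries held 11223588 to 29655262 counts on genes. Tfeb mRNA was lower in all clone libraries (25.5 to 54.1 CPM, counts scaled to the library size) than in the parental ones (79.2 to 99.9 CPM), yet remained detectable. The B cell markers Cd79a (794 to 1935 CPM), which encodes a signalling chain of the BCR, and Pax5 (1017 to 2384 CPM), the B lineage factor, were high in every library. The T cell genes Cd3e, Cd3d, Cd3g, Cd4 and Cd8a, which would mark the cells best known for Tcf7 and Lef1, had at most 9 counts in any library, although Cd8b1 (47.6 to 97.5 CPM), Cd247 (1.502 to 5.92 CPM) and Lat (0.845 to 7.22 CPM) were present in every library. The summed list of 8 T cell genes ranged from 64.5 to 105 CPM in parental cells, from 56.0 to 89.6 CPM in #A-59 and from 51.8 to 72.3 CPM in #B-20. The myeloid markers Lyz2 and Cd14 had at most 1 count, but Itgam reached 26.3 CPM in #A-59, where the 5 myeloid genes summed to 7.75 to 27.8 CPM against 1.83 to 9.01 CPM in parental cells. The 4 stromal genes summed to at most 7.18 CPM with Col3a1 at 0 in every library and Pdgfrb at 1.12 to 6.50 CPM. The part of these other markers in the results below was not tested. In bulk RNA, fewer cells expressing a gene and less RNA per cell cannot be told apart.

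To compare genes with each other, CPM were divided by the length of the longest transcript. In untreated parental cells Ctnnb1 led with 75.4 ± 0.00698 CPM per kb (mean ± SD of 2 libraries, as in all that follows), then came Myb (22.4 ± 0.923), Gsk3b (12.6 ± 0.155), Axin1 (12.2 ± 0.407) and Apc (8.09 ± 0.0211). The lower part of the order was formed by Axin2 (2.79 ± 0.311), Tcf7 (2.14 ± 0.241), Lef1 (0.422 ± 0.0698) and Tcf7l2 (0.239 ± 0.00974). Only Gsk3b and Axin1 were closer to each other than their SDs. When total exon length was used, Myb (9.44 CPM per kb) moved behind Gsk3b (10.7) and Axin1 (10.5). Gsk3b, Axin1 and Apc were thus well above the TCF/LEF factors per length, with either transcript length, while Axin2 stood close to Tcf7.

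A gene counted as a DEG when the FDR, the Benjamini-Hochberg adjusted p that the quasi-likelihood fit of edgeR gave, was below 0.01 and the change exceeded 1 on the log2 scale in either direction. By this rule 2 of 9 members differed between #A-59 and parental cells at 0 h (Lef1 and Tcf7), 1 at 6 h and 1 at 18 h (Tcf7 at both), while 4.78%, 7.91% and 4.92% of all 15318 genes tested did. In #B-20 Lef1 alone was a DEG at each of the 3 times, against 5.16%, 6.73% and 6.21% of all genes. By the FDR alone 5, 3 and 3 members passed in #A-59 at 0, 6 and 18 h (9.56%, 22.7% and 10.4% of all genes), and 2, 2 and 1 in #B-20 (10.7%, 14.2% and 14.2%). Between the clones 1, 2 and 2 members were DEGs at these times (3.85%, 5.82% and 4.82% of all genes), and 3, 3 and 4 passed the FDR (8.41%, 18.7% and 16.2%). Over the 6 comparisons of anti-IgM with untreated cells, the 8 members tested besides Axin2 gave 2 DEGs, Myb in parental cells at 18 h and Lef1 in #A-59 at 6 h. Among all genes the share of DEGs was 2.62% and 10.3% in parental cells at 6 and 18 h, 1.39% and 8.76% in #A-59 and 0.385% and 4.8% in #B-20. The FDR alone was passed at 18 h by 1, 2 and 1 members in the 3 genotypes (32.6%, 31.8% and 22.8% of all genes), and at 6 h by Lef1 in #A-59 (6.14%, against 7.34% in parental cells and 1.29% in #B-20). DESeq2 likewise gave 7 calls for the clones against parental cells and 2 for anti-IgM. With lists this short a count of 1 lies close to the share in all genes, so that the results are described gene by gene.

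**Figure D1:**
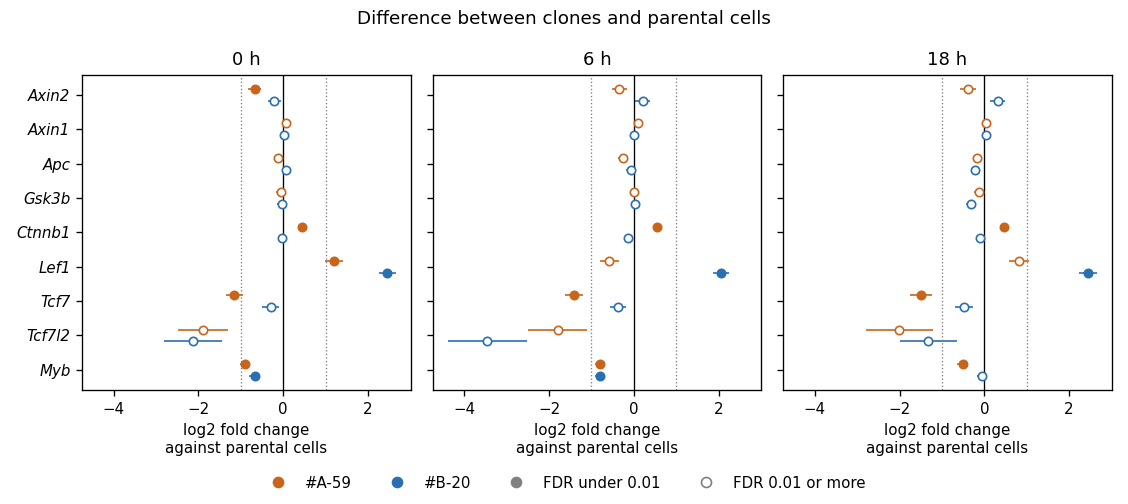
Log2 fold change of the 9 tested members in each clone against parental cells (x axis) at 0, 6 and 18 h of anti-IgM (panels). Points are estimates of the edgeR fit to all 18 libraries, bars are standard errors, filled points passed an FDR of 0.01 and dotted lines mark −1 and 1. Lef1 lay at 2.06 to 2.46 in #B-20, Tcf7 at −1.15 to −1.49 in #A-59, and Axin1, Apc and Gsk3b stayed within −0.32 and 0.10 in both clones. Tcf7l2 entered the fit through parental libraries alone, so its points are a description.

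Axin2 (ENSMUSG00000000142, chr11:108917828-108950783, GRCm38) was lower in every stimulated library than in any untreated library. Untreated parental cells held 17.4 and 14.9 CPM in the 2 libraries, and 4.67 and 5.24 CPM after 6 h and 4.82 and 5.55 CPM after 18 h of anti-IgM. Clone #A-59 held 10.7 and 9.42 CPM untreated, 4.47 and 3.20 CPM after 6 h and 3.72 and 4.28 CPM after 18 h. In #B-20 the values were 12.7 and 15.2 CPM, 5.61 and 5.94 CPM, and 6.54 and 6.53 CPM. The highest of the 12 stimulated libraries thus held 6.54 CPM, below the lowest untreated library at 9.42 CPM, with 53 to 481 counts behind each value.

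By these values Axin2 stood at 30.8% of its untreated level at 6 h in parental cells (log2 fold change −1.70, standard error 0.16), at 38.8% in #A-59 (−1.37, 0.17) and at 41.3% in #B-20 (−1.28, 0.17). At 18 h it stood at 32.5% (−1.62, 0.17), 39.6% (−1.34, 0.17) and 46.8% (−1.10, 0.16). The level thus had dropped by 6 h and was still low at 18 h. As the gene had been chosen for this pattern, no p-value is given. Over all genes tested, 8 (0.0522%) were lower in all 6 comparisons by the DEG rule, and 38 (0.248%) by the FDR alone. Axin2 was picked for this pattern, so these shares are background and give it no support. Without replicate 2 of untreated #B-20 the 18 h value of this clone was −0.96. The 4 differences between a clone's response and the parental response were 0.33 and 0.29 in #A-59 and 0.43 and 0.53 in #B-20 at 6 and 18 h (standard errors 0.23 to 0.25), that is, a smaller difference in the clones, and likewise no test is given.

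**Figure D2:**
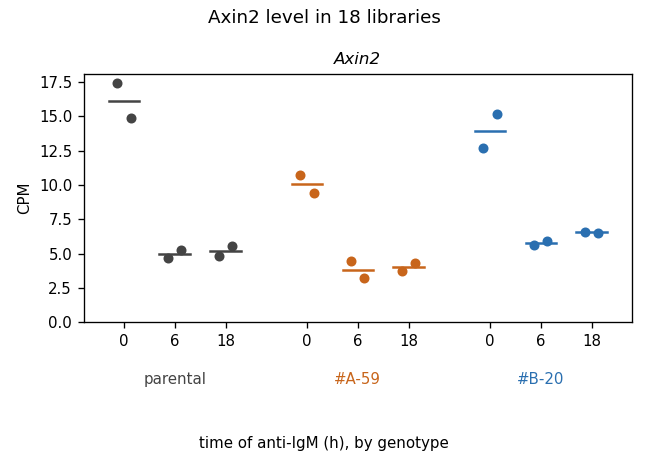
Axin2 level in CPM (y axis, from 0) in each library by genotype and hours of anti-IgM (x axis), with points for libraries and lines for the mean of 2. The 6 untreated libraries lie at 9.42 to 17.4 CPM and the 12 stimulated ones at 3.20 to 6.54 CPM.

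Ordered by mean level, Axin2 was highest in untreated parental cells (16.1 ± 1.8 CPM), then in untreated #B-20 (13.95 ± 1.75) and untreated #A-59 (10.1 ± 0.903). The stimulated groups followed with #B-20 at 18 h (6.53 ± 0.00742) and 6 h (5.78 ± 0.235), parental cells at 18 h (5.18 ± 0.518) and 6 h (4.96 ± 0.398), and #A-59 at 18 h (4.001 ± 0.397) and 6 h (3.83 ± 0.897). The libraries overlapped between the first and the second of this order, between the stimulated parental groups and between the stimulated #A-59 groups. The gene was chosen for its fall after anti-IgM and not for a difference between genotypes at a given time, which was tested. These tests use the same libraries as the choice and are not independent of it. In untreated #A-59 Axin2 was lower than in parental cells, at 62.6% (log2 fold change −0.68, standard error 0.15, FDR = 0.00362), short of the fold threshold of a DEG. The FDR was missed without replicate 1 of the parental cells (0.0750) and without replicate 1 (0.0149) or 2 (0.05003) of #A-59. After stimulation the differences of #A-59 were −0.34 and −0.39 (FDR = 0.158 and 0.192) and did not pass, nor did those of #B-20 at the 3 times (−0.21, 0.22 and 0.32, FDR = 0.389, 0.417 and 0.218). Between the clones, Axin2 was higher in #B-20 by 0.47, 0.56 and 0.71 on the log2 scale at 0, 6 and 18 h (FDR = 0.0478, 0.0264 and 0.00609). The last passed, and missed the FDR without any 1 of the 4 libraries (up to 0.0876).

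Axin1, the constitutive scaffold and paralog of Axin2, ranged from 73.7 to 90.1 CPM over all 18 libraries, with a median of 79.2 CPM. Untreated (76.9 to 90.1 CPM) and stimulated libraries (73.7 to 84.8 CPM) overlapped, as did the genotypes. None of its 19 differences between groups or responses was larger than 0.13 on the log2 scale, and the lowest FDR was 0.367.

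Apc, the second scaffold, ranged from 80.4 to 120 CPM with a median of 105 CPM. Its lowest library was one of #A-59 at 6 h, where the mean was 93.0 ± 17.8 CPM, against 111 ± 0.699 CPM in parental cells. This largest clone difference (−0.26, standard error 0.10) had an FDR of 0.0599. Gsk3b, the kinase, lay at 90.4 to 137 CPM. At 18 h parental cells held 134 and 137 CPM, above their untreated 104 and 106 CPM, and #A-59 held 119 and 129 CPM against 100 and 103 CPM. The parental difference of 0.36 (standard error 0.11) had an FDR of 0.0104, and the one of #A-59 was 0.29 (0.0354). In #B-20 the 18 h libraries (106 and 111 CPM) and the untreated ones (99.4 and 107 CPM) overlapped, with a difference of 0.07 (0.643). The response of #B-20 at 18 h minus that of parental cells was −0.29 (standard error 0.15, FDR = 0.427).

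Ctnnb1, the gene of β-catenin and the most highly expressed of the 10 per length, was higher in #A-59 at every time. Parental cells held 371 and 371 CPM untreated, 409 and 401 CPM after 6 h and 380 and 407 CPM after 18 h. In #A-59 these values were 525 and 483, 633 and 552, and 543 and 539 CPM. In #B-20 they were 374 and 359, 378 and 365, and 378 and 362 CPM. All 6 libraries of #A-59 thus lay above all 12 others, whose highest was 409 CPM. Compared with parental cells, Ctnnb1 was higher in #A-59 by 0.44, 0.55 and 0.46 on the log2 scale at 0, 6 and 18 h (standard errors 0.08, FDR = 5.66e-04, 3.26e-05 and 3.99e-04), which is 1.36-fold to 1.46-fold and below the threshold of a DEG. The FDR was missed without replicate 1 of #A-59 at 0 h (0.0144) or of parental cells at 18 h (0.0134), and at 6 h when only the groups compared entered the fit (0.0119). Clone #B-20 differed from parental cells by −0.02, −0.12 and −0.09 (standard error 0.08 at each time), which did not pass, and from #A-59 by −0.46, −0.67 and −0.55 (FDR = 5.27e-04, 5.99e-06 and 5.34e-05). The 0 h difference between the clones shrank to −0.40 without replicate 1 of #A-59 and to −0.43 without replicate 2 of #B-20. The threshold on the FDR was met at 0 h only with both of these libraries in the fit. Anti-IgM changed Ctnnb1 in no genotype past the FDR, with differences of 0.01 to 0.24. The antisense-strand gene Ulk4, whose exons overlap Ctnnb1 by 765 bases and whose reads cannot be told apart from it there, reached at most 6.15 CPM.

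**Figure D3:**
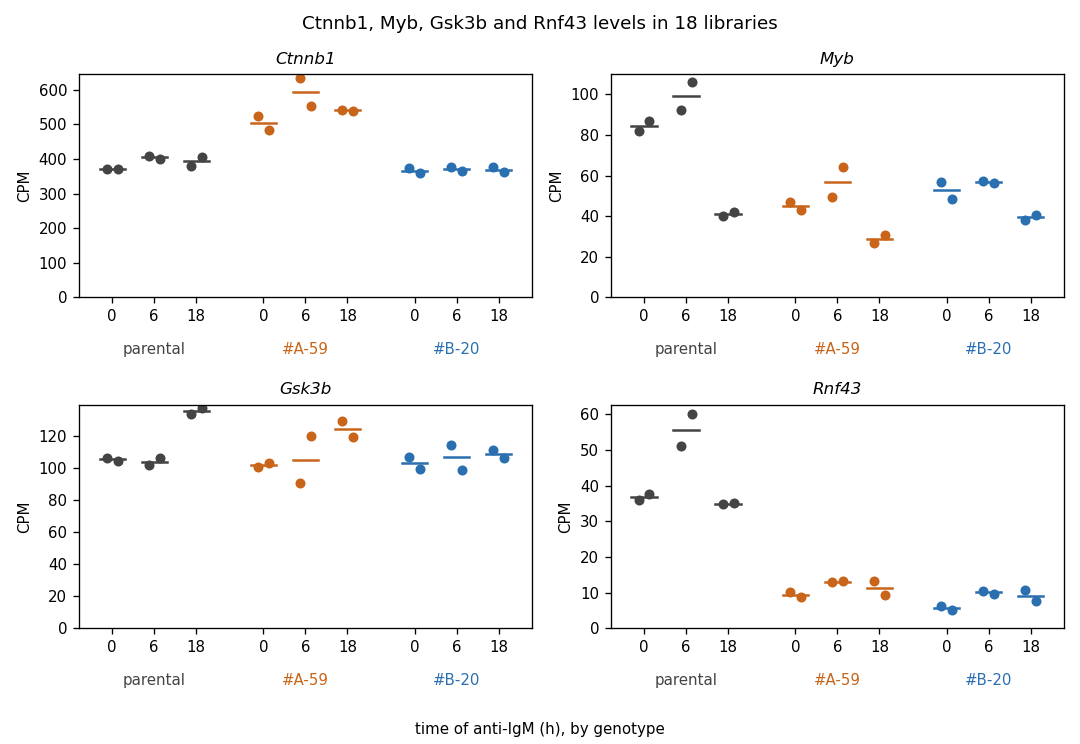
Levels of Ctnnb1, Myb, Gsk3b and of Rnf43 from the wider Wnt list in CPM (y axes, each from 0) by genotype and hours of anti-IgM (x axis), points for libraries and lines for the mean of 2. Ctnnb1 is at 483 to 633 CPM in #A-59 and at most 409 CPM elsewhere, and Rnf43 is at 34.8 to 60.0 CPM in parental cells and at most 13.3 CPM in the clones.

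Lef1, a TCF/LEF factor of early lymphocytes (ENSMUSG00000027985, chr3:131110297-131224357, GRCm38), was higher in #B-20 at all times. Parental cells held 1.37 and 1.74 CPM untreated, 2.49 and 2.58 CPM after 6 h and 1.43 and 1.82 CPM after 18 h. In #A-59 it was at 3.45 and 3.68, then at 1.70 and 1.69, and finally at 3.09 and 2.71 CPM. In #B-20 it was at 7.43 and 9.61, at 10.5 and 10.6, and at 8.39 and 9.81 CPM. All 6 libraries of #B-20 thus stood above all 12 others, whose highest was 3.68 CPM, while #A-59 was above parental cells at 0 and 18 h and below them at 6 h.

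In #B-20 Lef1 was a DEG at each time, 5.49-fold, 4.16-fold and 5.47-fold higher than in parental cells at 0, 6 and 18 h (log2 2.46, 2.06 and 2.45, standard errors 0.20, 0.18 and 0.21, FDR = 2.39e-08, 7.71e-08 and 4.32e-08). These 3 calls held in all 12 alternatives run on each. In untreated #A-59 it was 2.29-fold higher (1.20, standard error 0.20, FDR = 3.18e-04), which dropped to 1.03 with an FDR of 0.0136 without replicate 1 of untreated parental cells. After stimulation the differences of #A-59 of −0.58 and 0.81 did not pass (FDR = 0.0477 and 0.0219). The clones differed from each other at all times, with #B-20 2.40-fold, 6.197-fold and 3.12-fold above #A-59 (FDR = 5.58e-05, 1.69e-08 and 2.52e-06).

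After 6 h of anti-IgM Lef1 fell by 1.06 on the log2 scale in #A-59 (standard error 0.21, FDR = 0.00246), whereas the parental difference was 0.71 (0.0328) and that of #B-20 0.31 (0.412). The response of #A-59 at 6 h differed from the parental one by −1.77 (standard error 0.30, FDR = 0.00350), a DEG by the same rule, as were 0.339% of all genes. Over the 4 comparisons of responses for each of the 8 members it was the only one to pass. The FDR rose to 0.0310 when only the 4 groups compared entered the fit, and to between 0.0101 and 0.0243 without any 1 of 7 of the 8 libraries compared, while the log2 values kept to −1.61 to −1.94. The fall in #A-59 itself likewise lost its call with an FDR of 0.0554 when only its 2 groups entered the fit, and without replicate 1 (0.0107) or 2 (0.0247) at 0 h or replicate 1 at 6 h (0.0278). At 18 h Lef1 was back near the untreated level in #A-59 (difference −0.29, FDR = 0.253). The antisense RNA gene Lef1os1, which overlaps 1518 bases of Lef1 exons, had at most 2 counts in any library.

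Tcf7, which encodes TCF-1 (ENSMUSG00000000782, chr11:52246527-52283383, GRCm38), was lower in #A-59. Parental cells held 7.23 and 8.48 CPM untreated, 8.39 and 10.8 CPM after 6 h and 4.82 and 5.03 CPM after 18 h. In #A-59 it was at 3.996 and 2.95, at 3.45 and 3.805, and at 2.04 and 1.45 CPM. In #B-20 it was at 6.56 and 6.26, at 8.71 and 6.01, and at 3.73 and 3.36 CPM. At each time both #A-59 libraries lay below both parental and both #B-20 libraries, and in every genotype the 18 h libraries lay below the untreated ones.

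Tcf7 in #A-59 was a DEG at all 3 times, at 44.9%, 37.7% and 35.7% of the parental level (log2 −1.15, −1.41 and −1.49, standard errors 0.20, 0.21 and 0.26, FDR = 4.51e-04, 3.33e-05 and 3.55e-04). The 0 h value was −0.97 (FDR = 0.0121) without replicate 2 of untreated #A-59. The differences of #B-20 were −0.29, −0.37 and −0.48 and did not pass (FDR = 0.359, 0.188 and 0.135). Compared with #A-59, #B-20 held 2.06-fold more Tcf7 at 6 h and 2.01-fold more at 18 h (FDR = 0.00124 and 0.00567), and 1.82-fold more at 0 h (FDR = 0.00998), the last short of the fold threshold. These calls were lost when only the groups compared entered the fit (FDR = 0.0167 and 0.0250), that at 6 h also without replicate 1 of #A-59 (0.0184) or #B-20 (0.0444) and that at 18 h without any 1 library (up to 0.0738). After 18 h of anti-IgM the clones passed the FDR with log2 values of −0.999 in #A-59 (0.00360) and −0.85 in #B-20 (0.00439), while the parental −0.67 did not (0.0140). None of the 3 met the DEG rule, although the value of #A-59 met it in 7 of 12 alternatives. Without 1 library these FDRs rose to as much as 0.0720 in #A-59 and 0.0298 in #B-20. The responses of the clones differed from the parental response by −0.33 and −0.18 at 18 h (standard errors 0.33 and 0.30), with an FDR of 0.964 and 0.832.

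**Figure D4:**
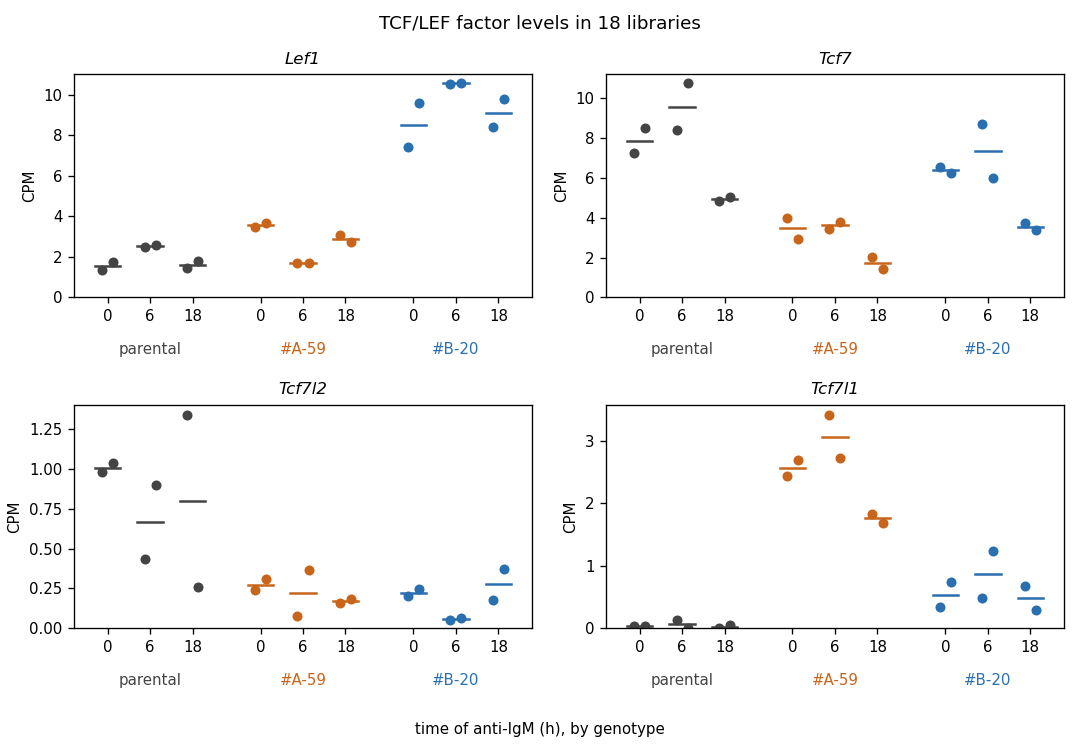
Levels of Lef1, Tcf7, Tcf7l2 and Tcf7l1 in CPM (y axes, each from 0) by genotype and hours of anti-IgM (x axis), points for libraries and lines for the mean of 2. Lef1 is at 7.43 to 10.6 CPM in #B-20 and at most 3.68 CPM elsewhere, and Tcf7l1 is at 1.69 to 3.41 CPM in #A-59, 0.298 to 1.24 CPM in #B-20 and at most 0.131 CPM in parental cells.

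Tcf7l2 and Tcf7l1, the remaining factors of the family, were rare transcripts. Tcf7l2 had 5 to 27 counts in parental libraries (0.259 to 1.34 CPM) and 1 to 10 in those of the clones (0.0492 to 0.373 CPM), with an overlap at 18 h. It passed the filter on low counts through 4 parental libraries alone, so its comparisons with the clones are a description. Its fitted differences were −1.32 to −3.45 and none passed the FDR (FDR = 0.0116 to 0.175). Without replicate 1 of parental cells at 18 h the difference of #B-20 at that time turned to 0.0753. From the summed counts alone, parental cells at 0 h held 3.77-fold more than #A-59 (95% interval 2.02 to 7.55) and 4.45-fold more than #B-20 (2.02 to 11.6), intervals that cover counting error only. The comparisons of both clones at 0 h and of #B-20 at 6 h became DEGs without a filter on low counts or when only the groups compared entered the fit. These calls are a description as well.

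Tcf7l1, which belongs to the wider list described below, showed the opposite order. The parental groups held 2, 3 and 1 counts in all at 0, 6 and 18 h, whereas the 6 libraries of #A-59 held 28 to 90 counts each and those of #B-20 5 to 19. The ratio of #A-59 to parental cells was 65.8 at 0 h (95% counting interval 17.8 to 549), 49.6 at 6 h (16.6 to 243) and 53.9 at 18 h (9.32 to 2161). For #B-20 it was 14.2 (3.37 to 127), 12.8 (3.98 to 65.9) and 14.98 (2.47 to 613). At least 10 counts in a library of median size, the level that the filter on low counts asked for, was reached in 6 libraries of #A-59, 3 of #B-20 and 0 parental ones. Tcf7l1 thus entered the fit through the clones, and its 5 calls in comparisons with parental cells are a description.

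The balance of Lef1 and Tcf7 differed between the genotypes. Per kb of the longest transcript, the ratio of Lef1 to Tcf7 was 0.189 to 0.359 in the 6 parental libraries (median 0.267), 0.442 to 1.87 in #A-59 (median 1.05) and 1.13 to 2.91 in #B-20 (median 1.64). The parental libraries did not overlap with those of either clone, and the ratio exceeded 1 in 0 of 6 parental, 3 of 6 #A-59 and 6 of 6 #B-20 libraries. With total exon length the ratios ended at 0.148 in parental cells and 0.771 in #A-59, and were 0.466 to 1.20 in #B-20, where 1 of 6 libraries exceeded 1. The order of the genotypes was the same, but which factor was the more abundant in the clones depended on the length used.

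**Figure D5:**
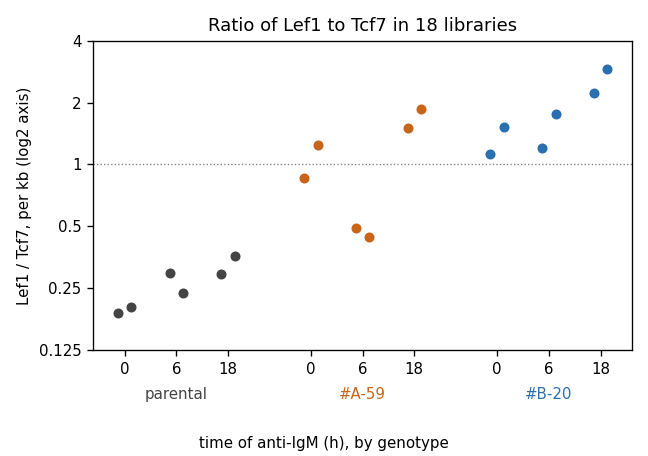
Ratio of Lef1 to Tcf7 in CPM per kb of the longest transcript (y axis, log2 scale) in each library by genotype and hours of anti-IgM (x axis), with a dotted line at 1. Parental libraries lie at 0.189 to 0.359, #A-59 at 0.442 to 1.87 with its lowest values at 6 h, and #B-20 at 1.13 to 2.91.

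Nkd1 (chr8:88521342-88594887, GRCm38), a target and inhibitor of the pathway, had 0 counts in each of the 18 libraries. A count of 0 allows up to 3 counts, which corresponds to 0.101 to 0.267 CPM depending on the library. Sp5, a further gene that β-catenin induces in many tissues, was at 0 in every library as well, and Lgr5 and Ascl2 had at most 2 and 9 counts.

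Myb (ENSMUSG00000019982, chr10:21124930-21160984, GRCm38) was lower in both clones and fell late after anti-IgM. Parental cells held 81.8 and 86.8 CPM untreated, 92.2 and 106 CPM after 6 h and 40.0 and 42.2 CPM after 18 h. In #A-59 it was at 46.9 and 42.9, at 49.5 and 64.3, and at 27.0 and 30.9 CPM. In #B-20 it was at 56.9 and 48.6, at 57.3 and 56.4, and at 38.2 and 40.7 CPM. All clone libraries at 0 and 6 h lay below the parental ones of the same time, and at 18 h those of #B-20 overlapped with the parental range.

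Against parental cells Myb passed the FDR in 5 of 6 comparisons, none of them with the fold of a DEG. The log2 fold changes of #A-59 were −0.91, −0.81 and −0.51 at 0, 6 and 18 h (FDR = 1.51e-05, 3.08e-05 and 0.00736), with standard errors of 0.12 to 0.13. In #B-20 it was −0.68 untreated and −0.80 after 6 h (3.95e-04 and 4.40e-05). The 18 h value of #A-59 missed the FDR without any 1 of the 4 libraries (up to 0.117), and the untreated value of #B-20 without its replicate 2 (0.0163). At 18 h #B-20 differed by −0.06 (FDR = 0.778). Anti-IgM for 18 h lowered Myb in parental cells by 2.05-fold (log2 fold change −1.03, standard error 0.12, FDR = 1.58e-06), a DEG that ended just short of the fold at −0.99 without replicate 2 at 0 h and at −0.998 without replicate 1 at 18 h. In #A-59 it fell by 0.64 (FDR = 3.59e-04, but 0.0123 without replicate 1 at 18 h) and in #B-20 the difference of −0.42 did not pass (0.0110). Whether the fall was smaller in #B-20 was tested and did not pass, with a difference of 0.62 (standard error 0.17, FDR = 0.0985). The adjacent lncRNA gene Gm26577, which overlaps Myb on the other strand, had at most 9 counts.

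The rest of the pathway was covered by a list of 79 further genes, of which 49 were tested. Ligands came first. Of 14 genes for ligands and their secretion, Wnt10a (244 to 418 CPM), Wnt6 (100.2 to 177 CPM) and Wnt10b (35.8 to 212 CPM) were abundant, and the other ligands stayed below 7 CPM. Porcn and Wls, which other cells need to acylate and to export Wnt proteins, had at most 8 and 11 counts in any library. Over the 6 comparisons of clones with parental cells the list gave 43 calls of DEGs. This count includes calls of Tcf7l1, Wnt3 and Notum, which reached the level of the filter in 0, 0 and 1 parental libraries. The shares that follow are thus a description. At 0, 6 and 18 h, #A-59 had 1, 3 and 4 genes higher and 4, 6 and 4 lower (10.2%, 18.4% and 16.3% of the list tested). In #B-20 there were 3, 2 and 1 higher and 5, 6 and 4 lower (16.3%, 16.3% and 10.2%). In all genes the shares were those given above, 4.78% to 7.91%. The median log2 fold change of the list lay between −0.13 and 0.02, and that of all genes between −0.02 and 0.01. For anti-IgM the list gave 30 calls, among them calls of Notum, which reached the level of the filter in 1 untreated and 8 stimulated libraries. At 6 h 1 gene was lower in parental cells, and 1 was higher and 2 lower in #A-59 (2.04% and 6.12%, against 2.62% and 1.39% of all genes). In #B-20 no gene of the list was called at 6 h, against 0.385% of all genes. The other calls came at 18 h, when 3 genes were higher and 7 lower in parental cells, 4 and 7 in #A-59, and 2 and 3 in #B-20 (20.4%, 22.4% and 10.2%, against 10.3%, 8.76% and 4.8% of all genes). When 10 or more counts were required in each library, 20 calls were left in place of the 43. The share in all genes under that filter is not given here.

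Rnf43, a membrane ubiquitin ligase that removes Wnt receptors and is itself a Wnt target, was lower in both clones. It was at 34.8 to 60.0 CPM in the 6 parental libraries, at 8.75 to 13.3 CPM in #A-59 and at 5.21 to 10.6 CPM in #B-20, so that no clone library overlapped with a parental one. Its log2 fold change was −1.95, −2.09 and −1.63 in #A-59 and −2.67, −2.46 and −1.93 in #B-20 at 0, 6 and 18 h (standard errors 0.16 to 0.18, FDR at most 7.04e-07). A DEG lower in all 6 of these comparisons was found for 120 genes (0.783%). Its close relative Znrf3 (18.9 to 39.0 CPM) was no DEG in any comparison.

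The receptor Fzd4 was at 2.27 to 5.80 CPM in parental cells and at 0.457 to 1.41 CPM in the clones, without overlap, and was a DEG in all 6 comparisons (−1.85 to −2.28, standard errors 0.33 to 0.39). In #B-20 the call was lost without replicate 1 of the parental (FDR = 0.0193) or replicate 2 of the #B-20 libraries (0.0387) at 0 h, and without replicate 2 of either at 6 h (0.0195 and 0.0309). Lgr4, a receptor for R-spondins, was lower in #A-59 at each time (−1.27, −1.83 and −1.76) and in #B-20 at 6 h (−1.26, FDR = 0.00176). It fell after 18 h of anti-IgM in parental cells from 5.93 and 6.04 CPM to 2.68 and 3.01 CPM (−1.06, FDR = 0.00692), and by 1.56 in #A-59 (0.00309) and by 1.30 in #B-20 (0.00509). These Lgr4 calls, apart from that of #A-59 at 6 h, were lost without any 1 of 3 or 4 of the 4 libraries compared, with an FDR of up to 0.107. The ligand gene Wnt16 was lower in all 6 comparisons of a clone with parental cells, from −1.23 in untreated #A-59 (FDR = 3.01e-04, but 0.0112 without its replicate 1) to −3.07 in the same clone at 6 h (1.57e-08). There it was at 0.871 and 0.725 CPM, against 2.00 and 2.23 CPM untreated, whereas parental cells held 4.63 and 5.25 CPM untreated and 6.95 and 6.79 CPM after 6 h. The difference of the 2 responses was −1.84 (standard error 0.33, FDR = 0.00522). It lost its call, like that of Lef1, when only the groups compared entered the fit and without any 1 of 7 of the 8 libraries (an FDR of up to 0.0316).

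In all 3 genotypes, 18 h of anti-IgM moved a further 4 genes as DEGs. Wnt10b fell from 127 and 122 CPM to 35.8 and 35.9 CPM in parental cells, from 212 and 191 CPM to 91.1 and 85.9 CPM in #A-59 and from 119 and 127 CPM to 44.1 and 46.7 CPM in #B-20. The changes on the log2 scale were −1.80, −1.19 and −1.44 (standard errors 0.08 to 0.09, FDR at most 8.45e-09), with groups that did not overlap. Compared with parental cells, Wnt10b was higher in #A-59 by 0.69, 1.20 and 1.30 at 0, 6 and 18 h, and a DEG at 6 and 18 h. The differences of #B-20 from parental cells were −0.02, 0.35 and 0.34, below the fold threshold. From #A-59 this clone differed by −0.71, −0.84 and −0.96 (FDR at most 5.70e-06). Of the corepressor genes of the Groucho family, Tle1 fell and Tle2 rose. Tle1 fell by 1.52, 1.003 and 1.15 in parental cells, #A-59 and #B-20 (FDR = 1.88e-05, 6.21e-04 and 9.80e-04), and Tle2 rose by 1.45, 1.31 and 1.67 (6.83e-06, 1.87e-05 and 1.06e-05). Tle2 shares 433 exon bases with Tle6 on the other strand, at 12.4 to 39.9 CPM, so its reads are uncertain. Hbp1, a repressor that can block TCF factors, rose from 15.3 to 20.1 CPM in untreated to 31.8 to 49.8 CPM in 18 h libraries (1.26, 1.32 and 1.03, FDR at most 4.46e-06). It overlaps Cog5 on the other strand (46.1 to 66.6 CPM). The calls of Tle1 in #A-59 (−0.98 when each library had to hold 10 or more counts, and −0.76 with an FDR of 0.0248 without replicate 1 at 18 h) and of Hbp1 in #B-20 (0.91 without replicate 2 at 0 h, 0.93 without replicate 1 at 18 h) lay close to the fold threshold. That of Tle1 in #B-20 was lost without replicate 1 at 0 h or at 18 h (FDR = 0.0129 and 0.0173).

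Of 6 genes known as Wnt targets in other tissues, 4 were tested and each of these was a DEG in at least 1 of the 19 comparisons, as were 25.1% of all genes tested. They are named here after their values had been seen. Myc fell from 306 to 337 CPM to 43.2 to 72.8 CPM in parental cells after 18 h (−2.48, FDR = 1.40e-04) and in #A-59 after 6 h (−1.97, 0.00354) and 18 h (−1.92, 8.09e-04), and was lower in #A-59 than in parental cells at 6 h (−1.62, 0.00311). Ccnd1, the gene of cyclin D1, was lower at 18 h in parental cells (−1.52, 0.00134) and #A-59 (−1.26, 0.00366), and lower in #B-20 than in #A-59 at 6 h (−1.35, 0.00577). Tnfrsf19 was lower at 18 h in the same genotypes (−1.52 and −1.31, FDR = 2.58e-09 and 9.37e-09), and higher in #B-20 than in parental cells at 6 h (1.09, 4.79e-08) and 18 h (1.34, 4.70e-09). No fall was called in #B-20, but its 18 h libraries lay lower as well. Myc went there from 185 to 203 CPM to 69.7 to 104 CPM. Ccnd1 went from 44.1 to 58.2 CPM to 18.0 to 31.5 CPM, and Tnfrsf19 from 230 to 246 CPM to 119 to 128 CPM. In parental cells Myc (158 to 162 CPM), Ccnd1 (32.9 to 35.8 CPM) and Tnfrsf19 (68.9 to 72.3 CPM) were lower by 6 h. Those falls were not called. Rnf43, a Wnt target described above, went the other way at 6 h and lay above its untreated libraries in each genotype, also without a call. Cd44 was not called after anti-IgM, but was lower in #A-59 than in parental cells at 6 h (−1.81, FDR = 7.93e-11) and higher in #B-20 than in #A-59 at each time (1.11, 1.14 and 1.14).

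Of 13 tested genes of the destruction complex and its regulators beyond the members, 2 were DEGs in at least 1 comparison, as were 25.1% of all genes tested. Csnk1e was lower in #B-20 than in parental cells at 0 and 6 h (−1.003 and −1.01, FDR = 3.74e-06 and 1.82e-06) and Apc2 rose in #A-59 after 18 h of anti-IgM (1.09, 0.00204). Both were named after their values were seen, and Apc2 had 16 to 73 counts per library. The same holds for the receptor Fzd2, lower in #B-20 at each time (−1.49, −1.68 and −1.22, FDR at most 3.52e-04), for Fzd7, higher in #A-59 at 18 h (1.06, 3.32e-04), and for Tle3, lower in parental cells after 6 h of anti-IgM (−1.08, 3.64e-07). Wnt3 and Notum, the gene of an enzyme that inactivates Wnt proteins, were called in 1 and 6 comparisons. Notum had 1 and 2 counts in untreated and 7 and 8 in 18 h parental libraries, and 5 and 10 against 36 and 42 in #A-59. Of the 9 libraries in which it reached the level of the filter 8 were stimulated and 8 came from clones, and Wnt3 reached it in 4 clone libraries alone, so that these calls are a description.

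Genes whose level resembled that of Axin2 most were searched among 9970 genes with at least 5 CPM, by Pearson correlation of log2 CPM over the 18 libraries. They were Pim1 (r = 0.944), a survival kinase gene, Ehd1 (0.927), Siah2 (0.912), Dmxl2 (0.905) and Kdm1b (0.899). Pim1 was at 72.3 to 163 CPM in untreated and at 11.4 to 27.1 CPM in stimulated libraries. For each of the 5 genes the untreated libraries did not overlap with the stimulated ones, apart from Dmxl2 (317 to 483 CPM against 210.0 to 322 CPM). Over the 9 group means Gtdc1, Pim1, Ehd1, Dmxl2 and Zdhhc5 were closest, so that 3 of 5 genes were shared. The libraries share groups and times, so these values are a description. None of the other members followed Axin2 closely, and their correlations with it lay between −0.49 for Ctnnb1 and 0.46 for Axin1.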

How the data were processed

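Poly(A) RNA of 18 WEHI-231 samples was sequenced single-end from non-stranded libraries. The deposited tables hold raw gene counts made by the authors, who ran bcl2fastq 2.20.0.422, STAR 2.5 and featureCounts 1.5.0-p1 per the submitters' processing notes, on GRCm38. Counting options are not given in the sources used here, so reads of overlapping genes on opposite strands cannot be separated. The 2 libraries of each group come from 2 experiments. P-values of edgeR rest on the spread between libraries of a group, shared over all 9 groups, not on that of the groups compared alone. This spread was unequal. Its chi-square per degree of freedom was 3.59 in parental cells at 6 h, 33.3 in #A-59 at 6 h and 58.3 in #B-20 at 6 h. The share of this in the 6 h results was not tested.

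Groups were taken from the labels, and 0 columns were left unmapped. Genes were filtered with filterByExpr, which left 15318 of 55487, scaled by TMM and fitted with edgeR 4.0.16 (quasi-likelihood, robust, R 4.3.3) with one mean for each of the 9 groups in all 18 libraries. Of the gene identifiers 93.2% had a symbol in the annotation, holding 99.6% of counts. CPM were TMM-scaled, and levels between genes were compared per kb. The totals of 11223588 to 29655262 counts limit the precision of rare transcripts. Intervals of count ratios are exact at 95% and cover counting error only. A count of 0 was read as at most 3 counts. Comparisons were clones against parental cells, anti-IgM against untreated cells, the difference of responses and #B-20 against #A-59. Alternatives were DESeq2 1.42.0 and its size factors, other filters, only the groups compared, a replicate block, a GC correction and each library left out. The fit was tested on simulated data. Promoters came from RefSeq (GRCm38.p6).

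The members and lists were chosen with earlier results of these data known. Named were the members, Tfeb, wider-list genes that were DEGs of like sign in both clones at 1 or more times or in all 3 genotypes at 6 or 18 h (at most 12 each), and the 5 tested genes with a mean of at least 5 CPM most correlated with Axin2 on log2 CPM (prior count 2). Genes called in few comparisons of the wider list were named after their values were seen.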

Additional observations from a re-analysis of the deposited data

Results flagged for a closer look

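Effects that differed between groups by a test of the difference itself are given here as values. The response of Lef1 to 6 h of anti-IgM was lower in #A-59 than in parental cells by −1.77 on the log2 scale (standard error 0.30, FDR = 0.00350 by edgeR). The same difference for Wnt16 was −1.84 (0.33, 0.00522), and both calls were lost without any 1 of 7 of the 8 libraries compared.

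Between the clones, Lef1 was higher in #B-20 than in #A-59 by 1.26, 2.63 and 1.64 at 0, 6 and 18 h, in all alternatives run. Tcf7 was higher in #B-20 by 1.04 at 6 h and 1.01 at 18 h. Tcf7l1 was lower in #B-20 by 2.21, 1.89 and 1.83 (log2 fold changes of −2.21, −1.89 and −1.83). This gene reached the level of the filter on low counts in 6 libraries of #A-59 and 3 of #B-20. It thus entered the fit mainly through #A-59, where it was higher, so these differences and their calls are a description. Wnt16 was lower in #B-20 at 0 h (−1.32) and higher at 6 h (1.11), and DESeq2 called neither (FDR = 0.0104 and 0.0214). Tle1 was lower at 18 h (−1.01), and Tle2 was lower at 0 h (−1.02) and 6 h (−1.43).

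Without 1 library the calls of Tcf7, Tcf7l1, Wnt16, Tle1 and of Tle2 at 0 h were lost, with an FDR of up to 0.0738 for Tcf7 at 18 h without replicate 2 of #A-59 at 18 h, 0.0667 for Tcf7l1 at 18 h without replicate 2 of #B-20, 0.131 for Wnt16 at 6 h without replicate 1 of #B-20, 0.0702 for Tle1 without replicate 2 of #A-59 and 0.0457 for Tle2 without replicate 1 of #A-59. With a GC correction Tle2 at 0 h was at −0.71 and Wnt16 at 6 h at 0.70.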

How the results depend on the processing

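Each of 145 values of single genes, ratios and the genes most like Axin2 was recomputed under the alternatives, 1606 values in all. In 1447 of these the direction and the side of the DEG rule were the same, 117 lost a call, 25 gained one, 14 moved and 3 turned direction. Values that passed the FDR alone and missed it in an alternative count here as the same. An example was Wnt10b in #A-59 at 6 h against untreated (FDR = 0.195 by edgeR with only the groups compared). The 6 counts of calls are given apart. Most losses (90) came from leaving out 1 library. For the members called after anti-IgM, 2 in the report, the GC correction gave 4, as did the replicate block with GC correction. The 1 call of a difference in response became 0 by edgeR with only the groups compared. In all libraries 3 of these member values had an unadjusted p under 0.05 by edgeR, and DESeq2 called 1. For #B-20 against #A-59, 5 calls became 3 with only the groups compared. The 43 calls of wider Wnt genes in the clones became 20 with at least 10 counts in every library. Leaving out 1 library gave 6 to 8 in place of 7 member calls in the clones, 1 to 3 for anti-IgM, 0 to 1 for the response, 4 to 5 between the clones, 38 to 45 wider genes in the clones and 25 to 31 after anti-IgM. Axin2 in untreated #B-20 against parental cells, −0.21 in the report, was 0.0181 with the GC correction and 0.0166 with the replicate block and GC correction. Tcf7l2 in #B-20 at 18 h ranged from −2.27 to 0.0753 without 1 library. Over total exon length all 9 ratios of Lef1 to Tcf7 were lower, with 1.06 in #B-20 at 18 h the highest. The cause of these shifts was not tested. The labels do not say that a replicate number marks a shared day, and the correlation of deviations between libraries of the same number was −0.026 to 0.32 (median 0.078), over 0 in 34 of 36 pairs of groups and over 0.1 in 14, so that pairing was not taken as given. The fit with the replicate block gave 7, 3, 1, 5, 46 and 37 calls for the 6 counts above, lost the call of Tcf7l1 in untreated #B-20 (FDR = 0.0102) and gained that of Tcf7 in #A-59 at 18 h. The depth limits what can be said of Tcf7l2, Tcf7l1 and Notum, with as few as 0 to 5 counts in some libraries.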
